A study of Mus musculus with 12 samples.

Results

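The endosomal sorting complexes required for transport (ESCRT) are described here through the mRNA levels of 30 mouse genes. They were taken by gene symbol from the count table. No measured value entered that rule, but the list was drawn up with earlier results of these data known. They comprise 3 genes of ESCRT-0, 8 of ESCRT-I, 3 of ESCRT-II, 11 of ESCRT-III, 3 of the VPS4 group and 2 that encode ALIX and ALG-2. All 30 were found among the 55487 genes of the table, and 29 passed the filter on low counts together with the other genes that make up the 11314 protein-coding genes tested. The cells were primary mesenchymal stromal cells (MSCs) cultured from the bone marrow of wild-type C57BL/6 mice, in 3 groups of 4 libraries. Control MSCs received no A1. The A1 group received 50 μM A1, a variant of the Accum molecule, for 6 h, and the A1+OVA group received 50 μM A1 with 1 mg/ml ovalbumin (OVA) for 6 h. No source states that the 4 libraries of a group came from separate cultures or animals, so p-values measure the spread between these libraries, which may be technical.

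ESCRT proteins sort ubiquitinated membrane proteins at endosomes and cut membranes from the inside of the neck. ESCRT-0 binds ubiquitinated cargo, ESCRT-I and ESCRT-II pass it on and bend the membrane, ESCRT-III forms the filaments that narrow the neck, and the VPS4 ATPase takes the filaments apart. The same ESCRT-III and VPS4 proteins, brought in by ESCRT-I or by ALIX with its calcium-binding partner ALG-2, also act in repair of the plasma membrane and of endolysosomes, in the last step of cell division, in resealing of the nuclear envelope and in exosome formation.

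Each library held between 13702348 and 16881995 counts. Levels are given as CPM, read counts scaled to the normalized library size, as mean ± SD over the 4 libraries of a group. Markers of MSCs were present, with a summed level of 14 markers between 13645 and 14393 CPM in control, between 11497 and 12015 CPM with A1 and between 11681 and 12100 CPM with A1+OVA. Within that sum, Cd44 and Itgb1 rose with A1 (log2 fold change 1.39 and 0.62), whereas Cxcl12, Pdgfra, Vcam1, Ly6a and Col1a2 fell (-1.37, -0.99, -0.95, -0.59 and -0.23, edgeR's quasi-likelihood test). However, Nt5e (CD73) and Thy1 (CD90) were at 0.539 ± 0.116 and 0.267 ± 0.493 CPM in control, and Lum and Dcn had at most 1 count in any library. The paper assessed CD73 and CD90 on its MSCs by flow cytometry, which measures protein and not mRNA. The summed level of 10 macrophage and leukocyte markers lay between 2.01 and 3.20 CPM in all groups, with Tyrobp and Cd3e at 0, and that of 6 endothelial markers lay between 0.218 and 0.916 CPM. The 5 adipocyte markers summed to between 62.7 and 78.9 CPM, nearly all of it Fabp4, with Lep at 0, while the low Adipoq and Cidec fell with A1 (-1.71 and -0.78 on the log2 scale). The 5 osteoblast markers, with Ibsp at 0, summed to between 2.97 and 4.14 CPM in control, between 6.03 and 8.40 CPM with A1 and between 5.41 and 6.89 CPM with A1+OVA. Nearly all of it was Phex (2.66 CPM in control, 4.87 with A1) and Dmp1 (0.750 and 2.48). Bglap and Sp7 had at most 2 counts in any library. The part of any such other cells in the results for ESCRT genes was not tested.

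In control MSCs, the first 5 places in the order of levels per exon length were held by ESCRT-III genes, whereas the other 6 genes of that complex lay from place 12 down to place 29. Chmp4b, the main subunit of the ESCRT-III filament, had the highest level at 105 ± 5.90 CPM per kb of exon (n = 4). Chmp2a (62.7 ± 1.62) and Chmp2b (62.3 ± 1.74), which cap the filament and recruit VPS4, came next and overlapped each other. They were followed by Chmp3 (47.9 ± 2.43) and Chmp5 (44.6 ± 1.52), which also overlapped. Pdcd6ip, which encodes ALIX, was at 37.4 ± 1.39 CPM per kb and Vps4a, one of the paired VPS4 ATPase genes, at 35.2 ± 1.27.

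The subunits that recognize cargo lay below these 5 genes. Vps36 (21.8 CPM per kb) and Tsg101 lay above the remaining ESCRT-III genes, whereas Hgs, Stam2 and Stam lay among them. On the same scale, Hgs, the scaffold of ESCRT-0, was at 18.6 ± 0.639 CPM per kb and Tsg101, the core of ESCRT-I, at 21.5 ± 0.654. From Chmp1b at 20.2 down to Ist1 at 14.9 CPM per kb, each gene overlapped the next in the order, so that these 8 genes are not separated from their neighbors. Vps37b (6.69 ± 0.429), Mvb12b (4.17 ± 0.405) and Chmp4c (0.775 ± 0.0209) had the lowest levels per kb of the 29 genes. The length is the union of all annotated exons, so a gene with long exons that these cells do not use is placed too low.

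**Figure D1:**
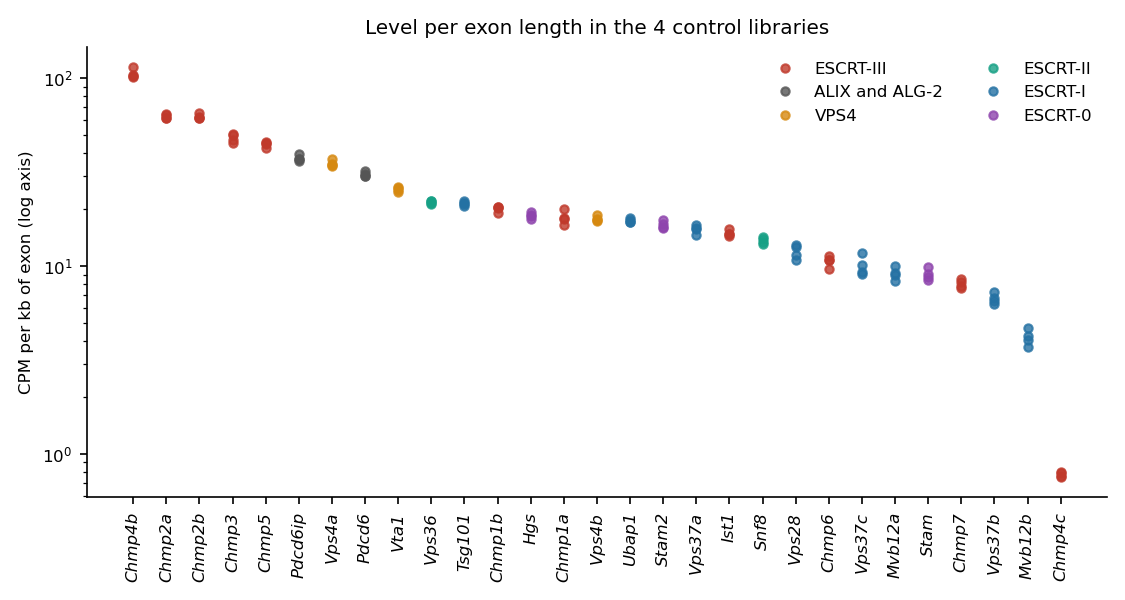
Level per exon length of the 29 ESCRT genes that passed the filter, in the 4 control libraries (points), as CPM per kb of exon on a log axis, ordered by mean and colored by complex. Chmp4b lies highest at 105 CPM per kb and Chmp4c lowest at 0.775 CPM per kb.

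With A1, 14 of the 29 tested ESCRT genes changed at an adjusted p-value under 0.05 (edgeR's quasi-likelihood test, adjusted over all 11314 genes), which is 48.3% of them, whereas 62.7% of all tested genes passed. Of these, 8 rose (27.6%, against 31.7% of all genes) and 6 fell (20.7%, against 31.1%). Only Vps37b and Chmp4c were also changed by at least 0.5 on the log2 scale, the size taken here for a DEG. Both rose, which makes 6.90% of the members higher by that rule, against 9.41% of all genes, and no member was lower by it, against 11.6% of all genes. The median log2 fold change was 0.04 over the members and -0.0017 over all genes, and the median absolute log2 fold change was 0.12 against 0.23. The 4 A1 and the 4 control libraries did not overlap for 13 members (44.8%, against 54.4% of all genes).

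With A1+OVA, 13 of the 29 genes changed (44.8%, against 57.6% of all genes), of which 9 rose (31.0%, against 29.7%) and 4 fell (13.8%, against 27.9%). The same rule for DEGs again gave Vps37b and Chmp4c (both higher, 6.90%, against 8.92%), and none that fell (against 8.79%). The libraries of the groups did not overlap for 12 members (41.4%, against 49.4% of all genes). Their median log2 fold change was 0.05, and the median absolute log2 fold change was 0.11 against 0.20 over all genes. Both treatments were compared with the same control libraries, so the values of the comparisons are set side by side and are not independent of each other. As RNA was extracted from whole cultures, fewer cells of a type and less RNA per cell cannot be told apart.

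**Figure D2:**
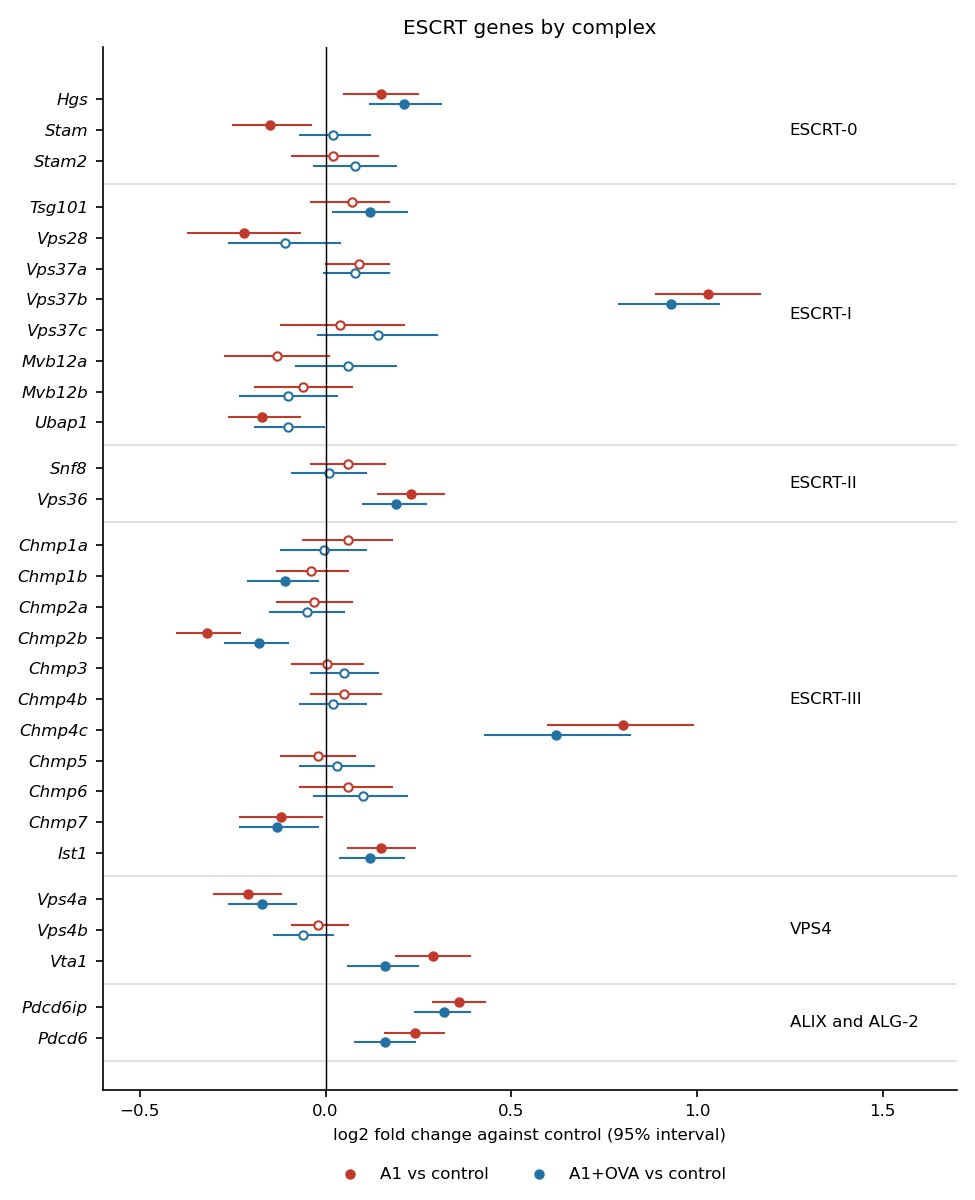
Log2 fold change of the 29 tested ESCRT genes against control with its 95% interval, for A1 (red) and A1+OVA (blue), grouped by complex. Filled points have an adjusted p-value under 0.05. Vps37b and Chmp4c lie to the right of 0.5 for both treatments, while all other genes lie between -0.32 and 0.36.

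ESCRT-0 is made of HRS, encoded by Hgs, and a STAM protein. Among its 3 genes, Hgs rose with both treatments and Stam fell with A1. Hgs was measured at 55.3, 53.0, 57.6 and 55.6 CPM in the control libraries, 61.1, 64.8, 57.6 and 62.4 CPM with A1, and 62.6, 63.0, 67.6 and 63.6 CPM with A1+OVA. All treated libraries were above all control libraries, although the lowest A1 library and the highest control library were nearly level. Its log2 fold change was 0.15 ± 0.05 (SE) with A1 (adjusted p = 0.00803) and 0.21 ± 0.05 with A1+OVA (adjusted p = 4.72e-04).

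Stam, an adaptor that binds ubiquitin and deubiquitinases, had 70.9, 83.1, 73.1 and 75.6 CPM in control, 69.9, 69.6, 68.9 and 65.4 CPM with A1, and 74.6, 75.4, 78.6 and 79.3 CPM with A1+OVA. The A1 libraries were below those of both other groups, and control overlapped with A1+OVA. Its log2 fold change was -0.15 ± 0.05 with A1 (adjusted p = 0.0128) and 0.02 ± 0.05 with A1+OVA (adjusted p = 0.683). Without control replicate 2, which held the highest value, Stam with A1 was at -0.10 with an adjusted p of 0.0628. The paralog Stam2 passed neither test, with 99.5 ± 4.38 CPM in control, 101 ± 6.67 with A1 and 105 ± 8.09 with A1+OVA.

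ESCRT-I is a rod of TSG101, VPS28, one VPS37 protein and one MVB12 or UBAP1 protein. With A1, 1 of its 8 genes rose, Vps37b, and 2 fell, Vps28 and Ubap1. Vps37b (chr5:124004641-124032270, GRCm38), one of the interchangeable VPS37 subunits, was at 17.4, 18.1, 18.9 and 20.2 CPM in the control libraries, at 38.5, 39.9, 37.5 and 36.5 CPM with A1, and at 36.7, 36.3, 37.8 and 31.4 CPM with A1+OVA. Every treated library lay far above every control library. This gave a log2 fold change of 1.03 ± 0.07 with A1 (2.04-fold, adjusted p = 1.23e-11) and 0.93 ± 0.07 with A1+OVA (adjusted p = 7.41e-11).

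The other VPS37 genes did not pass the test. Vps37a had 93.4, 105, 101 and 100 CPM in control, 99.9, 108, 109 and 108 CPM with A1, and 104, 105, 108 and 106 CPM with A1+OVA, so that the groups overlapped. Its log2 fold change with A1 was 0.09 ± 0.04 (adjusted p = 0.0740), and it passed the test without A1 replicate 1 (0.11, adjusted p = 0.0357) or without control replicate 2 (0.11, adjusted p = 0.0267). With A1+OVA it was 0.08 ± 0.04 (adjusted p = 0.0976), and 0.11 (adjusted p = 0.0362) without control replicate 2.

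Vps37c had 31.6, 24.6, 25.1 and 27.5 CPM in control, 28.1, 26.9, 26.1 and 31 CPM with A1, and 27, 31.1, 31.6 and 29.8 CPM with A1+OVA. Here a single control library was as high as the highest treated libraries. The log2 fold change was 0.04 ± 0.08 with A1 (adjusted p = 0.648) and 0.14 ± 0.08 with A1+OVA (adjusted p = 0.130). Without control replicate 1 the latter was 0.22 with an adjusted p of 0.0124.

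Vps28, a core subunit that links ESCRT-I to ESCRT-II, had 29, 24.9, 29.7 and 26.3 CPM in control, 24.5, 23.6, 21.1 and 25 CPM with A1, and 24.4, 26.9, 23.4 and 26.9 CPM with A1+OVA. The highest A1 library and the lowest control library were about level, so that these groups just overlapped. It fell with A1 (log2 fold change -0.22 ± 0.07, adjusted p = 0.0106), and its value with A1+OVA was -0.11 ± 0.07 (adjusted p = 0.185). Ubap1, whose product makes an endosome-specific form of ESCRT-I, went from 62.8 ± 1.39 CPM in control to 55.9 ± 1.78 CPM with A1 (log2 fold change -0.17 ± 0.04, adjusted p = 0.00279). With A1+OVA it was at 58.8 ± 2.60 CPM (-0.10 ± 0.04, adjusted p = 0.0712). That last value passed the test with upper-quartile normalization (-0.12, adjusted p = 0.0292), with all genes of the table (-0.11, adjusted p = 0.0398), without A1 replicate 4 (-0.10, adjusted p = 0.0486) or without A1+OVA replicate 1 (-0.11, adjusted p = 0.0490).

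Tsg101, which binds ubiquitin and the late-domain motifs of viral and cellular partners, had 58.8 ± 1.79 CPM in control, 61.6 ± 3.21 with A1 and 63.9 ± 3.88 with A1+OVA. Its log2 fold change was 0.07 ± 0.05 with A1 (adjusted p = 0.253) and 0.12 ± 0.05 with A1+OVA (adjusted p = 0.0469). The call with A1+OVA was lost in 16 of 19 alternative analyses, with adjusted p-values up to 0.177, reached without A1+OVA replicate 1, where the value was 0.08. Mvb12a had 28 ± 2.21, 25.5 ± 1.54 and 29.1 ± 1.65 CPM in control, A1 and A1+OVA, and Mvb12b had 36.4 ± 3.54, 35 ± 1.33 and 34 ± 1.33 CPM. Neither passed the test against control. Mvb12a with A1 was at -0.13 (adjusted p = 0.0883) and passed with upper-quartile normalization (-0.16, adjusted p = 0.0422) and without A1 replicate 1 or control replicate 2 (both -0.18, adjusted p = 0.0377 and 0.0297). Without control replicate 2, Mvb12b with A1+OVA went from -0.10 to -0.15 (adjusted p = 0.0347).

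ESCRT-II is a Y-shaped complex of VPS36, SNF8 and VPS25. Vps36, which binds ubiquitin and phosphoinositides, rose with both treatments. It had 82.2, 81.9, 79.8 and 79.1 CPM in control, 95.8, 91.6, 99.2 and 92.4 CPM with A1, and 96.8, 94.7, 87.7 and 88.9 CPM with A1+OVA. All 8 treated libraries were above the 4 control libraries. The log2 fold change was 0.23 ± 0.04 with A1 (adjusted p = 7.29e-05) and 0.19 ± 0.04 with A1+OVA (adjusted p = 6.45e-04). Snf8 stayed within its spread, at 36.7 ± 1.36, 38.2 ± 0.683 and 36.9 ± 0.784 CPM, and passed neither test.

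Vps25 (chr11:101253707-101259549, GRCm38) was the member that failed the filter, with 0 to 5 counts per library. In the GENCODE M21 annotation, 67.2% of its exon bases also belong to exons of Ramp2 on the same strand, and Ramp2 itself had at most 2 counts in any library. The authors counted on a later Ensembl release, in which this overlap was not checked. Reads that fall on both genes cannot be given to one of them, and how the counting treated them was not tested, so no level is given for Vps25. Only Stam2 (4.88% of exon bases) and Vps28 (3.69%) also shared same-strand exon bases with another gene of the table, and the other 27 members shared none.

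ESCRT-III genes encode small charged proteins that assemble into filaments. Of the 11 genes, Chmp4c and Ist1 rose and Chmp2b and Chmp7 fell with A1. The median log2 fold change of the complex was 0.0044 with A1 and 0.02 with A1+OVA.

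Chmp4c (chr3:10366907-10428856, GRCm38), a CHMP4 isoform known for its part in the abscission checkpoint, had 7.67, 8.04, 7.61 and 7.96 CPM in control. It had 13.5, 12.4, 12.9 and 15.5 CPM with A1, and 13.2, 11.4, 13.1 and 10.7 CPM with A1+OVA. All treated libraries lay above the narrow range of the controls. The fit gave a log2 fold change of 0.80 ± 0.09 with A1 (1.74-fold, adjusted p = 2.00e-07) and 0.62 ± 0.09 with A1+OVA (adjusted p = 7.04e-06).

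Chmp4b, the main CHMP4 isoform, showed no such difference. It had 231, 207, 206 and 211 CPM in control, 224, 211, 235 and 219 CPM with A1, and 229, 217, 208 and 212 CPM with A1+OVA. The groups overlapped throughout, with log2 fold changes of 0.05 ± 0.04 with A1 (95% interval -0.04 to 0.15, adjusted p = 0.296) and 0.02 ± 0.04 with A1+OVA (adjusted p = 0.740).

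Chmp2b (chr16:65539128-65562726, GRCm38), a late-acting subunit known from inherited dementia, had 118, 125, 120 and 118 CPM in control, 98.9, 93.2, 98.2 and 95.4 CPM with A1, and 110, 109, 97.9 and 106 CPM with A1+OVA. Both treated groups lay below control, and A1+OVA lay mostly between control and A1. The log2 fold change was -0.32 ± 0.04 with A1 (adjusted p = 9.97e-07) and -0.18 ± 0.04 with A1+OVA (adjusted p = 6.18e-04). Its paralog Chmp2a passed neither test, at 72.9 ± 1.88, 71.4 ± 3.67 and 70.5 ± 4.05 CPM in control, A1 and A1+OVA.

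Smaller changes were found for Ist1, Chmp7 and Chmp1b. Ist1, which regulates VPS4 and coats endosomal tubules, went from 105 ± 3.68 CPM in control to 116 ± 0.820 CPM with A1 (log2 fold change 0.15 ± 0.04, adjusted p = 0.00363). With A1+OVA it was at 114 ± 6.36 CPM (0.12 ± 0.04, adjusted p = 0.0153), and at 0.09 with an adjusted p of 0.0784 without A1+OVA replicate 3.

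Chmp7, which starts ESCRT-III assembly at the nuclear envelope, went from 50.7 ± 2.31 CPM to 46.6 ± 1.60 CPM with A1 (-0.12 ± 0.05, adjusted p = 0.0452) and 46.4 ± 2.57 CPM with A1+OVA (-0.13 ± 0.05, adjusted p = 0.0386). The call with A1 was lost in 8 of 19 alternative analyses, among them DESeq2 (adjusted p = 0.0684). It was lost without A1 replicates 2 or 3, A1+OVA replicates 1 or 4, or control replicates 1 or 3, with adjusted p-values of 0.128, 0.0689, 0.0503, 0.0535, 0.130 and 0.0988. The call with A1+OVA was lost without A1+OVA replicates 3 or 4 or control replicates 1 or 3, with adjusted p-values of 0.156, 0.0632, 0.115 and 0.0883.

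Chmp1b, which recruits microtubule-severing enzymes to the midbody, went from 50.9 ± 1.67 CPM in control to 47.1 ± 1.03 CPM with A1+OVA (-0.11 ± 0.05, adjusted p = 0.0418), and was at 49.6 ± 1.92 CPM with A1 (-0.04 ± 0.05, adjusted p = 0.498). Its call was lost in 8 of 19 alternatives. These were DESeq2 (adjusted p = 0.0627), no filter on low counts (0.0741), and leaving out any of A1+OVA replicates 1, 3 and 4 or control replicates 2, 3 and 4, with adjusted p-values between 0.0608 and 0.103.

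The other ESCRT-III genes stayed close to control. Chmp1a was at 59.2 ± 4.97, 61.7 ± 2.97 and 59.0 ± 3.09 CPM in control, A1 and A1+OVA, and Chmp3 at 156 ± 7.89, 156 ± 7.34 and 161 ± 6.77 CPM. Chmp5, a regulator that holds the VPS4 cofactor LIP5, was at 67.7 ± 2.31, 66.9 ± 3.0 and 69.0 ± 3.99 CPM. Chmp6, which connects ESCRT-II to the filament, was at 25.8 ± 1.72, 26.8 ± 0.998 and 27.6 ± 1.43 CPM. None of these 4 genes passed the test, and their log2 fold changes lay between -0.02 and 0.10.

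Within the VPS4 group, the cofactor rose and one of the ATPase genes fell. Vta1, which encodes LIP5, the activator of VPS4, had 59.7, 59.2, 56.0 and 57.4 CPM in control, 72.7, 70.8, 72.5 and 67.6 CPM with A1, and 69.8, 66.0, 61.7 and 61.7 CPM with A1+OVA. All treated libraries were above control, those with A1+OVA by less. The log2 fold change was 0.29 ± 0.05 with A1 (adjusted p = 2.08e-05) and 0.16 ± 0.05 with A1+OVA (adjusted p = 0.00760). Vps4a fell from 88.7 ± 3.19 CPM to 76.6 ± 3.41 CPM with A1 (-0.21 ± 0.04, adjusted p = 2.01e-04) and to 78.9 ± 2.02 CPM with A1+OVA (-0.17 ± 0.04, adjusted p = 0.00167). Vps4b, its paralog, was at 159 ± 5.67, 157 ± 5.33 and 153 ± 2.08 CPM and passed neither test.

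Both genes of the ALIX and ALG-2 branch rose with both treatments. Pdcd6ip (chr9:113651744-113708259, GRCm38), which encodes ALIX, had 250, 256, 255 and 272 CPM in control, 325, 338, 337 and 325 CPM with A1, and 327, 323, 317 and 319 CPM with A1+OVA. The treated libraries formed a narrow band well above control, with a log2 fold change of 0.36 ± 0.04 with A1 (1.28-fold, adjusted p = 1.47e-08) and 0.32 ± 0.04 with A1+OVA (adjusted p = 1.17e-07). Pdcd6, which encodes the calcium sensor ALG-2, rose from 85.9 ± 2.51 CPM to 101 ± 2.65 CPM with A1 (0.24 ± 0.04, adjusted p = 1.64e-05) and to 96.0 ± 2.34 CPM with A1+OVA (0.16 ± 0.04, adjusted p = 0.00110).

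**Figure D3:**
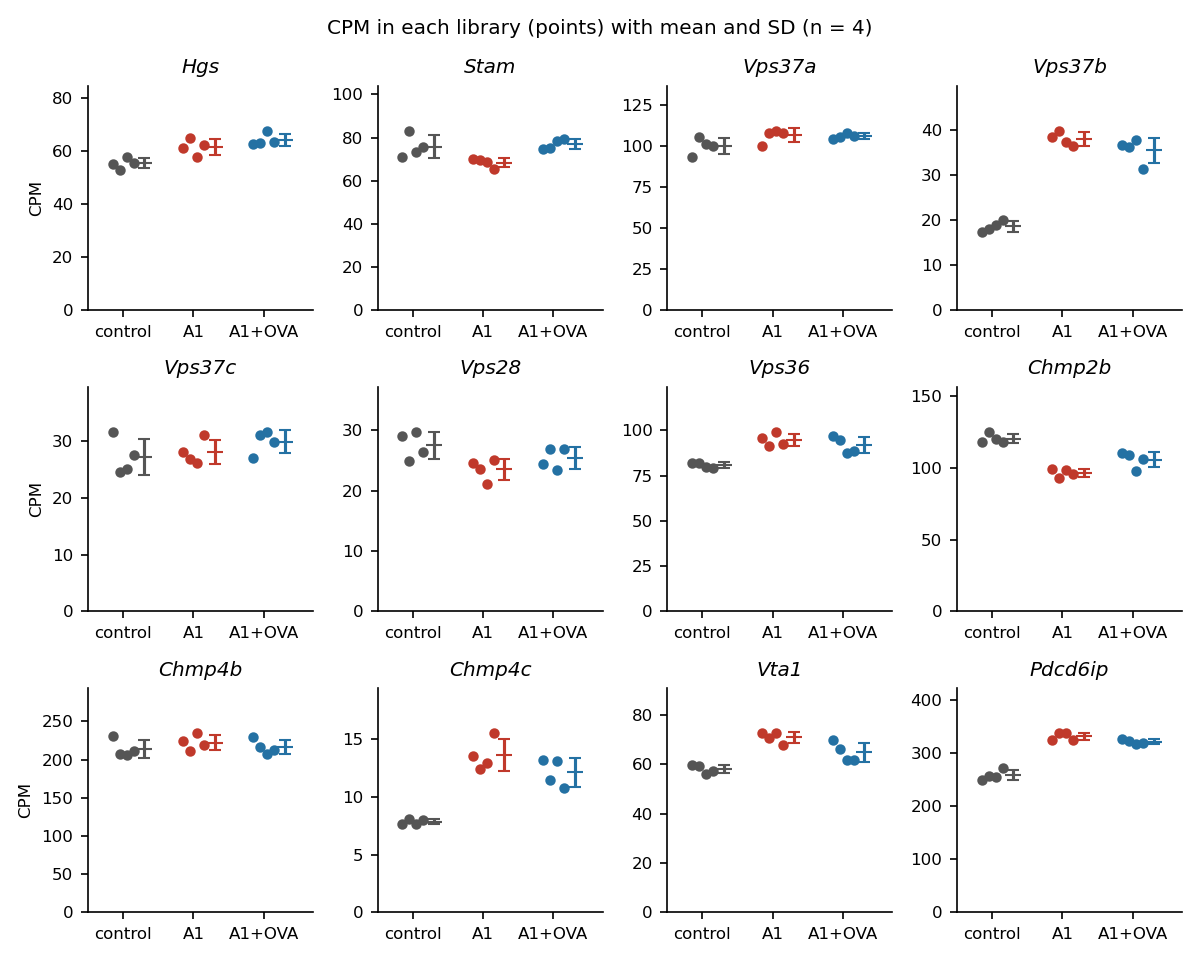
CPM of 12 ESCRT genes in each of the 12 libraries (points), with the mean and SD of each group beside them (n = 4), each panel starting at 0. The Vps37b libraries lie between 17.4 and 20.2 CPM in control and between 31.4 and 39.9 CPM with either treatment, whereas the Chmp4b, Vps37a and Vps37c libraries of the groups overlap.

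The addition of OVA to A1 was examined by comparing A1+OVA with A1 directly. Of the 29 ESCRT genes, 2 passed the test, Stam and Chmp2b, and both were higher with OVA (6.90%, against 12.9% of all genes called and 6.05% called higher). None was lower, against 6.81% of all genes, and none was a DEG, against 1.20% of all genes. At an unadjusted p under 0.05, 3 members were higher and 1 was lower, with edgeR as with DESeq2. Using the values per library given above, Stam was higher in all A1+OVA libraries than in any A1 library (log2 fold change 0.17 ± 0.05, adjusted p = 0.0248). For Chmp2b, the lowest A1+OVA library lay within the range of the A1 libraries (0.13 ± 0.04, adjusted p = 0.0397). Both genes had fallen with A1 alone. The same A1 libraries enter both comparisons, so that fall and this rise are not independent of each other.

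Neither of these calls held throughout. That of Stam was lost without A1 replicates 1, 3 or 4 or A1+OVA replicates 3 or 4 (adjusted p = 0.0507, 0.0566, 0.0968, 0.0633 and 0.0767). That of Chmp2b was lost in 11 of 19 alternatives, including DESeq2 (adjusted p = 0.0655), and without any one A1 replicate (adjusted p = 0.0606, 0.109, 0.0649 and 0.102), A1+OVA replicates 1, 2 or 4 (0.0951, 0.107 and 0.0871) or control replicate 3 (0.0526). Mvb12a did not overlap between these groups either and was at 0.19 ± 0.07 (adjusted p = 0.0679), or with an adjusted p of 0.0446 without control replicate 1. These were the 2 members whose libraries did not overlap (Stam and Mvb12a, 6.90%, against 18.1% of all genes). Vta1 was at -0.13 ± 0.05 (adjusted p = 0.0723), and at -0.17 with an adjusted p of 0.0239 without A1+OVA replicate 1. For Vps37b and Chmp4c the differences were -0.10 (95% interval -0.23 to 0.03) and -0.17 (-0.36 to 0.01).

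Paralogs that can take the same place in a complex were compared as the log2 ratio of their CPM within each library, a quantity that does not depend on library scaling. In 5 of 9 pairs, the A1 and control libraries did not overlap, and each of these gave p = 0.0286 in an exact two-sided permutation test, the smallest value that 4 against 4 libraries allow. Adjusted over the 9 pairs, this became 0.0514, so no pair passed the threshold in the exact test. The share of non-overlapping ratios among other gene pairs was not computed. For levels of single genes, 54.4% of all genes did not overlap between A1 and control. That share was 49.4% between A1+OVA and control and 18.1% between A1+OVA and A1. The pairs Vps37a to Vps37b and Vps37b to Vps37c share Vps37b and are not separate results. The mean log2 ratio of Vps37b to Vps37c was -0.54 ± 0.22 (SD, n = 4) in control, 0.44 ± 0.15 with A1 and 0.25 ± 0.15 with A1+OVA. The ratio of Vps37a to Vps37b was 2.41 ± 0.09, 1.48 ± 0.09 and 1.57 ± 0.11, and that of Chmp4b to Chmp4c was 4.75 ± 0.10, 4.02 ± 0.15 and 4.15 ± 0.15. The mean ratio of Vps37b to Vps37c was thus below 0 in control and above 0 in both treated groups.

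Smaller differences were seen for Chmp2a to Chmp2b, with -0.72 ± 0.07 in control, -0.43 ± 0.05 with A1 and -0.58 ± 0.04 with A1+OVA, and for Vps4a to Vps4b, with -0.84 ± 0.07, -1.04 ± 0.07 and -0.95 ± 0.03. With A1+OVA, 5 pairs did not overlap with control either, with Mvb12a to Mvb12b (-0.38 ± 0.05 in control and -0.23 ± 0.08 with A1+OVA) in the place of Vps4a to Vps4b, and again with an adjusted p of 0.0514 (exact permutation test). Between A1+OVA and A1, the pairs Chmp2a to Chmp2b and Mvb12a to Mvb12b did not overlap (p = 0.0286, adjusted p = 0.129, exact permutation test). The ratio of Vps37a to Vps37c differed by 0.04 between A1 and control, the smallest difference among the 9 pairs in that comparison.

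**Figure D4:**
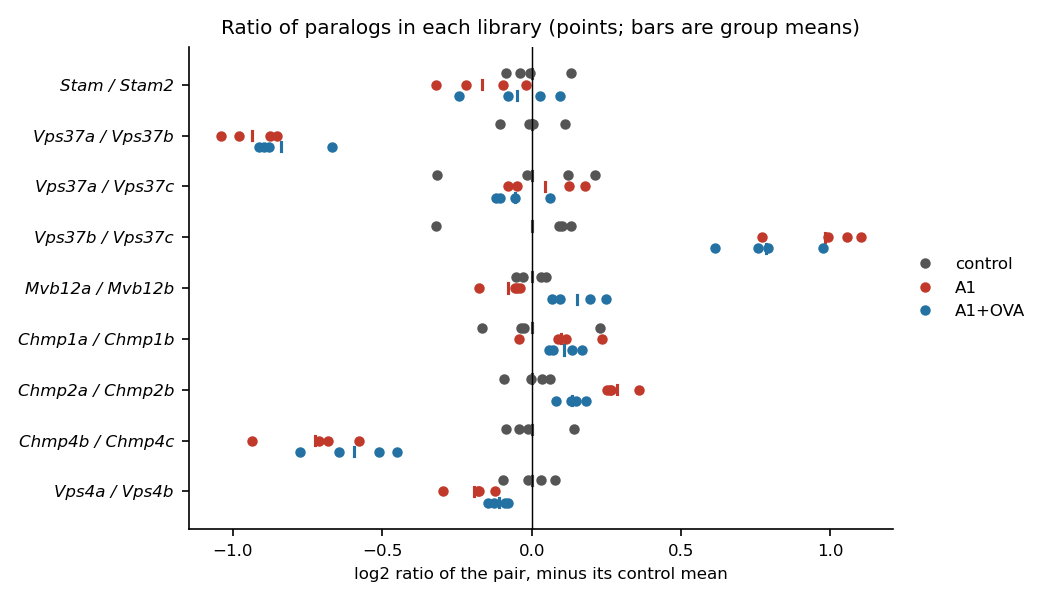
Log2 ratio of 9 pairs of ESCRT paralogs in each library (points), shown relative to the mean of the 4 control libraries, with bars at the group means. The pairs that include Vps37b lie near 0.98 or -0.94 with A1, Chmp4b to Chmp4c lies at -0.73, and Vps37a to Vps37c stays around 0.

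Expressed per exon length, Vps37b made up 20.6% ± 1.19 of the 3 VPS37 transcripts in control (range 19.2 to 21.8), 33.6% ± 1.49 with A1 (31.6 to 34.7) and 31.6% ± 1.82 with A1+OVA (29 to 33.4). Vps37a remained the most abundant of them, with 48.3% ± 2.76, 40.9% ± 1.32 and 41.1% ± 1.13. In contrast, Chmp4c made up 0.732% ± 0.0490 of the Chmp4b and Chmp4c transcripts in control, 1.22% ± 0.131 with A1 and 1.11% ± 0.113 with A1+OVA, so that Chmp4b held nearly the whole pool in every group. The share of Chmp2b in the CHMP2 pool was 49.8% ± 1.15, 44.9% ± 0.849 and 47.5% ± 0.736 in control, A1 and A1+OVA.

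For the members that moved, the sequence upstream of the annotated start is shown, so that members that rose and members that fell can be compared by the letters before their start. Of the 30 genes, 22 had a promoter in the RefSeq table of GRCm38.p6, from 250 bases before to 50 bases after the start. No entry was held for Vps37a, Vps37b, Vps28, Snf8, Chmp1b, Chmp4c, Chmp6 and Chmp7. The strongest rises and falls with an entry belonged to Pdcd6ip, Vta1, Chmp2b and Vps4a, and the part of each upstream window that holds no annotated exon of any gene is shown 5′ to 3′. Capitals mark matches to any of 5 motifs searched on both strands. These were the E-box CACGTG, its extension TCACGTG, the cAMP response element TGACGTCA, the antioxidant element TGACNNNGC and the CCAAT box CCAAT. The first 2 overlap by construction. The stretches are located at chr9:113708260-113708509, minus strand, for Pdcd6ip, chr10:14705674-14705739, minus strand, for Vta1, chr16:65562763-65563012, minus strand, for Chmp2b, and chr8:107031019-107031156, plus strand, for Vps4a.
Pdcd6ip: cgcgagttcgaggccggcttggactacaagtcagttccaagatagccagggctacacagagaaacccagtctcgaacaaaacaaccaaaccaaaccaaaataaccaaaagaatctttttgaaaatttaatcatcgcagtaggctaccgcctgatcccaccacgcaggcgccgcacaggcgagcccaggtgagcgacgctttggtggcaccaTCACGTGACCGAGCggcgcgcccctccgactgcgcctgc
Vta1: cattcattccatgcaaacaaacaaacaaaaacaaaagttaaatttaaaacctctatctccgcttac
Chmp2b: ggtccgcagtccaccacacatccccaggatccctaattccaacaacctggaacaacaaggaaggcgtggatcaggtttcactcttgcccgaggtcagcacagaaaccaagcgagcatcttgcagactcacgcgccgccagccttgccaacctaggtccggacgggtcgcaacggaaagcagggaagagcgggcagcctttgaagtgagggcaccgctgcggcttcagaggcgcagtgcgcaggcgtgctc
Vps4a: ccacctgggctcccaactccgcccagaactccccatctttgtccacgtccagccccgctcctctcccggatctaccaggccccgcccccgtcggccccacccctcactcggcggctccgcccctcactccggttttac

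Only the Pdcd6ip stretch held a match among these 4. Its capitals join an E-box that reads as the extended form on both strands and an antioxidant element that overlaps the end of it. Over the whole windows, Pdcd6ip was the only member with an E-box, which 7.15% of all 32851 promoters in the table held, and the extended form was in 3.77%. The antioxidant element was in 6 of the 24 member windows (against 12.4% of all promoters), those of Chmp1a, Chmp5, Pdcd6ip, Tsg101, Vps25 and Vps4b. Of these genes, Pdcd6ip alone was called with A1. The CCAAT box was in 5 member windows (20.8%, against 37.4%), and the cAMP response element in that of Chmp2a (4.17%, against 1.79%). A match describes the letters of the window and not a bound site.

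Genes that work with ESCRT were placed in 8 lists with 128 genes, of which 124 were tested. With A1, 35 of them rose and 51 fell, whereas 31.7% of all genes rose and 31.1% fell (edgeR's quasi-likelihood test). These lists were chosen with earlier results of these data known. Of all tested genes, 62.7% were called with A1. The share was lower among the tethers (5 of 10), the ubiquitin enzymes (56.2%) and the abscission and nuclear envelope partners (58.3%). In the other lists it was higher, between 64.7% and 84.6%. Whether any list differed from all genes was not tested. Lists differed in direction. On the side of membrane repair, calcium, exosomes and ubiquitin enzymes, more genes rose than fell. On the side of PI3P, retromer and the tethers, almost all called genes fell.

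Among 19 tested calcium sensors, annexins and other membrane repair genes, 11 rose and 4 fell with A1, and the median of the list was 0.17 on the log2 scale. Anxa1, a calcium-dependent membrane binding protein, rose from 1056 to 2001 CPM (log2 fold change 0.92), and Anxa7, its relative that acts with ALG-2 in repair, rose by 0.46. Dysf, which encodes dysferlin, the sensor of membrane tears in muscle, rose from 41.2 to 71.7 CPM (0.80). Smpd1, the acid sphingomyelinase released at wounds, fell from 48.2 to 30.7 CPM (-0.65). Pef1, Asah1 and Anxa4 fell as well (-0.23, -0.18 and -0.14).

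Of 17 tested genes of exosome formation and release, 9 rose and 5 fell, with a median of 0.10. Sdc4, a syndecan that binds ALIX through syntenin, rose from 115 to 260 CPM (1.17), and Sdc2 rose by 0.47. Smpd3, the neutral sphingomyelinase of an ESCRT-independent route, rose from 4.48 to 7.60 CPM (0.76), and Rab31 rose from 170 to 283 CPM (0.74). The 5 that fell were Flot1 (-0.33), Cd82 (-0.28), Tspan6 (-0.26), Cd81 (-0.23) and Flot2 (-0.17).

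The 16 ubiquitin ligases and deubiquitinases at endosomes had 6 genes that rose and 3 that fell, with a median of 0.09. Stambpl1, a deubiquitinase related to the STAM-binding enzyme AMSH, rose from 30.1 to 52.2 CPM (0.79). The ligase genes Cblb and Nedd4l rose by 0.62 and 0.46, and Rnf11 by 0.49. The 3 that fell were Nedd4, from 2791 to 2046 CPM (-0.45), Stambp, which encodes AMSH itself (-0.37), and Usp8 (-0.19).

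Other ubiquitin-binding adaptors and ESCRT partners included 3 genes that rose and 8 that fell among 17 tested, with a median of -0.18. Tom1l1, an adaptor related to ESCRT-0, rose from 8.23 to 14.6 CPM (0.82). Vps37d, the least abundant VPS37 gene, had only 6 to 28 counts per library. It went from 1.34 to 0.705 CPM with A1 (-0.91), in contrast to Vps37b. With A1+OVA, Vps37d was at -0.22 (adjusted p = 0.429, edgeR's quasi-likelihood test). Cc2d1b, which binds CHMP4 proteins, fell by 0.64 on the log2 scale with A1, and Vps9d1 fell by 0.54. Vps9d1 did not pass the test with A1+OVA (-0.14, adjusted p = 0.321, edgeR's quasi-likelihood test).

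The abscission and nuclear envelope partners were divided, with 4 genes up and 3 down among 12 and a median of -0.02. Cep55, which brings ALIX and TSG101 to the midbody, rose from 60.8 to 83.2 CPM (0.45), as did the midbody kinesin Kif23 (0.31). Lemd2, the nuclear envelope anchor of CHMP7, rose by 0.24, whereas Zfyve26, which encodes a PI3P-binding midbody protein, fell to 20.5 CPM (-0.55).

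In the list of PI3P and endosome maturation, 1 gene rose and 10 fell among 13, with a median of -0.23. The gene that rose was Eea1, the tether of early endosomes (208 to 263 CPM, 0.34). Fig4, a phosphoinositide phosphatase that acts with Pikfyve, fell from 78.5 to 52.6 CPM (-0.58). Uvrag, a subunit of the lipid kinase complex that makes PI3P, fell by 0.33, and Pikfyve by 0.27.

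Retromer, retriever and sorting nexin genes, which carry cargo out of endosomes before ESCRT takes it, had 1 gene up and 13 down among 20, with a median of -0.26. Washc2, a subunit of the WASH complex, fell from 249 to 172 CPM (-0.54), and Washc5 fell by 0.33. Vps35l, of retriever, fell by 0.36, and the sorting nexin Snx2 by 0.30.

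Of the 10 CORVET and HOPS tether genes, which join endosomes with each other and with lysosomes, none rose and 5 fell, with a median of -0.15. No tether gene was higher with A1 than in control at an unadjusted p under 0.05 either, with 0 in edgeR and 0 in DESeq2. Vps41 and Vps39, of HOPS, fell by 0.43 and 0.31, and the shared core genes Vps18 and Vps11 by 0.33 and 0.30.

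**Figure D5:**
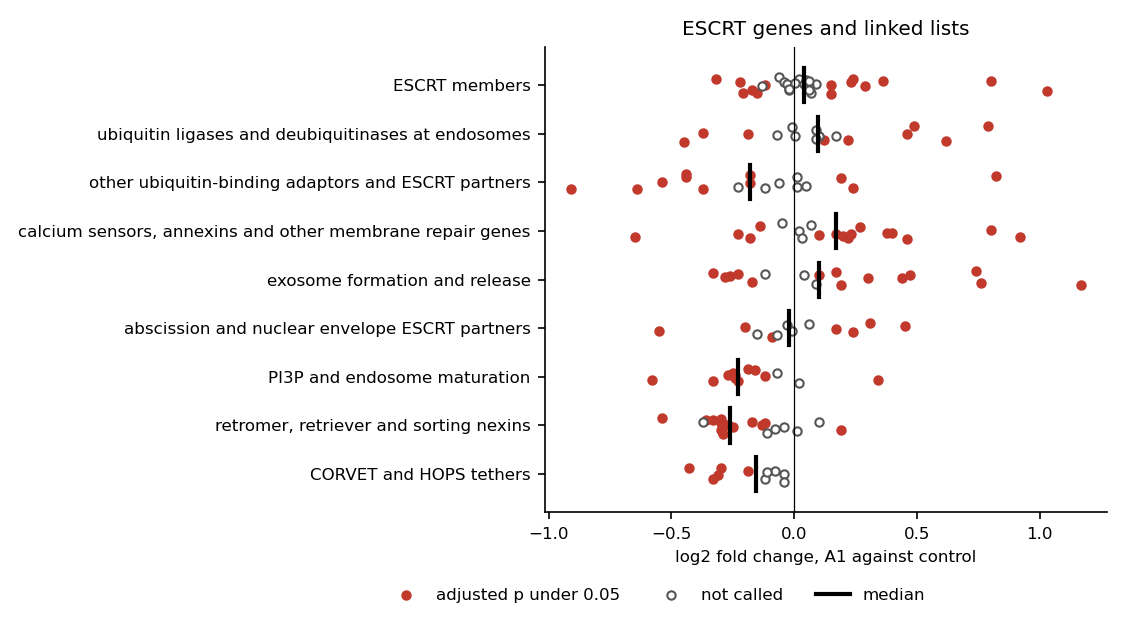
Log2 fold change with A1 against control for the 29 tested ESCRT genes and for the tested genes of the 8 linked lists (points, spread vertically at random), with red points for an adjusted p-value under 0.05 and black bars at the median. The medians lie at 0.17 for membrane repair genes and at -0.26 for retromer, retriever and sorting nexin genes, with the ESCRT genes at 0.04.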

How the data were processed

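RNA of mouse MSCs was measured in 12 libraries, which were grouped by their titles. The authors prepared strand-specific poly(A) libraries, used STAR 2.7 for alignment to GRCm38 and featureCounts 2.0 for counting, and deposited raw counts per gene without normalization or filter. Symbols, exon lengths and coordinates came from GENCODE M21, an earlier annotation than the Ensembl release the authors counted on.

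From these counts, protein-coding genes that passed filterByExpr were scaled by TMM factors, and 1 fit of the 3 groups with edgeR's quasi-likelihood test (version 4.0.16 under R 4.3.3) gave all comparisons, with Benjamini-Hochberg adjustment over the 11314 genes. The code was tested on simulated data. A DEG is a gene with adjusted p below 0.05 whose log2 fold change is 0.5 or more in size. Log2 CPM used a prior count of 2. Paralog ratios were tested with exact permutation tests (scipy 1.17.1).

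The members and lists were chosen with earlier results of these data known. Values per library are given for the 1 called member of each complex with the largest change with A1, a second one in ESCRT-I and ESCRT-III, the 3 paralog pairs with the largest shift and members called between A1+OVA and A1. Up to 4 called genes with the largest change with A1 are named per linked list. In the lists of membrane repair genes, of ubiquitin enzymes and of exosomes, the genes that fell are named as well. Promoters were to be those of the 2 largest rises and falls, and were taken among members with a RefSeq entry.

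Alternatives were upper-quartile normalization, DESeq2 1.42.0 (the tool named in the study's methods), other filters on low counts, non-coding genes included, a fit of only the groups compared, a replicate block and leaving out each library. No pairing by replicate number was visible. Deviations of same-numbered libraries correlated at 0.021 on average (-0.132 to 0.156), and those of differently numbered libraries at -0.007. These values cannot show whether same-numbered libraries shared a culture, animal or day. No replicates were copies, with chi-square values between 1.92 and 6.83 per degree of freedom. Depth limits low genes, and counting precision was not separated from the spread of 4 libraries per group. Flow cytometry and animal experiments were not analysed here.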

Additional observations from a re-analysis of the deposited data

Results flagged for a closer look

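Among the 29 tested ESCRT genes in 3 groups, 4 of 87 sets of 4 libraries (4.60%) had a library that stood apart from the other 3, judged by its gap to them as a share of the range of the group (Dixon's test at 95%). Chance alone flags about 5% of such sets. Vps37a was at 99.9 CPM in A1 replicate 1, where the other A1 libraries had 108 to 109 CPM. Ubap1 was at 53.2 CPM in A1 replicate 4, against 56.6 to 57.0 CPM in the others. In A1+OVA replicate 3, Mvb12a was at 31.6 CPM, against 28 to 28.5 CPM, and Chmp6 at 29.7 CPM, against 26.6 to 27.1 CPM. Without A1 replicate 1, Vps37a passed the test with A1 (log2 fold change 0.11, adjusted p = 0.0357, edgeR's quasi-likelihood test).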

How the results depend on the processing

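Over 19 alternatives, 12 of 14 members called with A1 kept their call in each (not Stam and Chmp7), 9 of 13 with A1+OVA (not Tsg101, Chmp1b, Chmp7 and Ist1) and 0 of 2 between A1+OVA and A1. The cause of lost calls was not tested. Leaving out 1 library gave 13 to 16 members with A1, 10 to 14 with A1+OVA (2 to 5 of them lower) and 0 to 3 between A1+OVA and A1. That last count was 1 with DESeq2, with all genes of the file and without the filter on low counts. With the size of a DEG also required, the counts were 2, 2 and 0. Upper-quartile normalization moved the median of the members from 0.04 to 0.01 with A1 and from 0.05 to 0.03 with A1+OVA, and it shifted the median of all genes alike, by -0.03 and -0.02 (0.01 between A1+OVA and A1). The medians without 1 library lay between 0.01 and 0.06 and between 0.03 and 0.06. With a prior count of 0.5, the exact test of the paralog pairs again passed 0 of 9 pairs with A1, against 5 at an unadjusted p under 0.05. With 5 pairs at the smallest possible p, the adjusted value is 0.0514. No pair could then pass, so the count of 0 is no check of the result.

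The replicate block gave 14, 12 and 3 called members in the same order as above. It lost Tsg101 with A1+OVA (adjusted p = 0.0632), added Mvb12a between A1+OVA and A1 (0.0470) and changed no other member's call. Differences within replicate numbers cannot go below p = 0.125 in the exact sign-flip test of 4 pairs.

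Only members that were not called changed direction. Upper-quartile normalization, with that shift of all genes, did so for these values near 0, in Stam2 (-0.01) and Chmp3 (-0.02) with A1, Snf8 (-0.01) and Chmp4b (-0.0043) with A1+OVA, and Vps37a (0.0009) and Chmp7 (0.0019) between A1+OVA and A1. With all genes of the file, Chmp3 was at -0.0030 with A1 and Snf8 at -0.0038 with A1+OVA, and with at least 10 counts in every sample Chmp3 was at -0.0004 with A1. Leaving out 1 library gave ranges across 0 with A1 for Stam2 (-0.01 to 0.06), Vps37c (-0.02 to 0.12), Mvb12b (-0.11 to 0.0040), Chmp3 (-0.03 to 0.03) and Vps4b (-0.04 to 0.01). It did so with A1+OVA for Stam (-0.01 to 0.07), Snf8 (-0.01 to 0.03), Chmp1a (-0.05 to 0.05) and Chmp4b (-0.01 to 0.06), and between A1+OVA and A1 for Vps37a (-0.04 to 0.0035), Chmp2a (-0.05 to 0.01) and Chmp7 (-0.03 to 0.03).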
